A study of Homo sapiens with 3 samples.

Results

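The genes HSPA8, HSP90AA1, HSP90AB1, HSPA9 and HSPD1 encode abundant molecular chaperones of the cytosol and the mitochondrion. They were taken by name from 3 deposited lists of A-to-G sites, and all 5 had entries in each list. Together they held 155 of the 16820 listed positions and 5 of the 4245 named genes.

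The series used HyperTRIBE: an RNA-binding protein carries the hyperactive catalytic domain of ADAR, which turns adenosines into inosines in RNA within its reach. Sequencing reads inosine as G, so the marks appear as A-to-G changes. There were 3 libraries of THP-1, a line from a human monocytic leukemia, and every culture received the pGK-GFP retrovirus. The transgene was DDX41 fused to the domain (DDX41-ADARcd), the domain without a partner (ADARcd alone) or none (empty vector), and total RNA was taken at day 7. DDX41 is a DEAD-box helicase, and its gene is a known site of inherited and acquired mutations in myeloid leukemia. The labels name 1 library for each transgene, no loss of the cells' own DDX41 and no sorting of transduced cells. No replicate error can therefore be given, and each test below compares the reads of 2 libraries, not the conditions.

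Chaperones bind proteins that are not yet folded and release them in cycles of ATP hydrolysis. HSPA8 is the constitutive cytosolic member of the HSP70 family and also strips clathrin from coated vesicles. HSP90AA1 and HSP90AB1 are the cytosolic HSP90 paralogs, which hold kinases and steroid receptors in an activatable state. HSPA9 is the mitochondrial HSP70 that pulls imported proteins through the inner membrane, and HSPD1 is the HSP60 chaperonin in whose cavity many of them fold.

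The positions on which most of the results rest are shown first, as spliced transcript sequence of GENCODE 29 on GRCh38, 5′ to 3′. The capitals mark the listed adenosine in the middle with the base before and the base after it. The first sequence holds the best-supported position of all 5 genes, the next the only position listed for both edited libraries, and the others, for each gene and edited library, the position with most edited reads, or among equals the one at the highest level. Those of HSP90AB1 and HSPA9 in DDX41-ADARcd lie in the 3′ UTR.
HSPA8 in ADARcd alone, chr11:123061182-123061202, minus strand: tgtcgccttTACggacactga
HSPA8 in both edited libraries, chr11:123061171-123061191, minus strand: cggacactgAACggttgatcg
HSPA8 in DDX41-ADARcd, chr11:123057811-123057831, minus strand: gaggcatgcCAGgaggaatgc
HSP90AA1 in DDX41-ADARcd, chr14:102086301-102086321, minus strand: ttcgcctttCAGgcagaaatt
HSP90AA1 in ADARcd alone, chr14:102082263-102082283, minus strand: ccattccatTATtgagacctt
HSP90AB1 in DDX41-ADARcd, chr6:44253757-44253777, plus strand: gtcaagcccCATtccctctct
HSP90AB1 in ADARcd alone, chr6:44253345-44253365, plus strand: aaccgcatcTATcgcatgatc
HSPA9 in DDX41-ADARcd, chr5:138555854-138555874, minus strand: catttaatgGACagtgattct
HSPA9 in ADARcd alone, chr5:138567677-138567697, minus strand: aaatgctgtGATcacagtccc
HSPD1 in DDX41-ADARcd, chr2:197488441-197488461, minus strand: gaaaagaaaGACagagttaca
HSPD1 in ADARcd alone, chr2:197490231-197490251, minus strand: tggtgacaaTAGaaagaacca

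On GRCh38, HSPA8 spans 123057489 to 123063230 on the minus strand of chromosome 11 and HSP90AA1 102080738 to 102139699 on that of chromosome 14. HSP90AB1 spans 44246166 to 44253888 on the plus strand of chromosome 6. HSPA9 spans 138553756 to 138575724 on the minus strand of chromosome 5 and HSPD1 197486581 to 197516737 on that of chromosome 2. Exon numbers below are those of HSPA8-224, HSP90AA1-201, HSP90AB1-201, HSPA9-201 and HSPD1-202, with 9, 11, 12, 17 and 12 exons.

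Depth and labels were looked at once for the whole series. In the list of DDX41-ADARcd with ADARcd alone as control, positions had a median of 30 reads in the first library and 45 in the second. With the empty vector as control the medians were 220 reads in DDX41-ADARcd and 30 in the empty vector, and 286 reads in ADARcd alone and 27 in the empty vector. Over 23 positions of DDX41 itself there were 236 reads in DDX41-ADARcd at the median, against 32 for ADARcd alone, with a median ratio of 6.93. Of 18 markers of a monocytic line, 11 had sites in DDX41-ADARcd against ADARcd alone, 8 with the empty vector as control, and 11 in ADARcd alone, with SPN ahead in each list. CD14, CD33, ITGAM, KMT2A and MPO had none in the 3 lists, which hold edited positions only. Of 11 genes chosen to mark other cell types, PECAM1 had 8 sites in DDX41-ADARcd against ADARcd alone and 1 against the empty vector, and the others had none. The presence of another cell type is not read from the PECAM1 sites. Every listed position had 1 or more edited reads in its edited library, and 0 edited reads among 10 or more in the control.

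The 5 chaperone RNAs carried many listed positions, most of them at a level under 1%. Editing levels are given as edited reads in percent of all reads at a position, and their intervals are exact Clopper-Pearson 95% intervals, which cover counting error only because PCR reads without molecular identifiers are not independent molecules. For DDX41-ADARcd the 5 genes had 72 sites when ADARcd alone was the control and 66 with the empty vector. For ADARcd alone they had 83 with the empty vector as control. HSP90AB1 ranked 17 of 4036 genes and 11 of 957 by number of sites in the lists of DDX41-ADARcd, and HSPA8 ranked 17 of 1258 in that of ADARcd alone. The lists share libraries: 65 of the DDX41-ADARcd positions stand in both of its lists with the same reads, which leaves 73 positions for DDX41-ADARcd. HSP90AB1 had the most for DDX41-ADARcd, with 26 against ADARcd alone and 24 against the empty vector, followed by HSPA8 with 17 and 18, HSP90AA1 with 14 and 13, HSPD1 with 8 and 7, and HSPA9 with 7 and 4. In ADARcd alone the order was HSPA8 with 31, HSP90AB1 with 21, HSP90AA1 with 13, HSPD1 with 12 and HSPA9 with 6. Per 1000 adenosines of the transcript, HSPA8 had 25.9 positions in DDX41-ADARcd and 44.5 in ADARcd alone, and HSP90AB1 had 35.8 in DDX41-ADARcd and 28.9 in ADARcd alone. HSP90AA1, HSPA9 and HSPD1 lay between 8.45 and 13.1 in DDX41-ADARcd and between 7.25 and 16.2 in ADARcd alone. These counts, ranks and densities are not corrected for depth, which differed between genes and libraries. In ADARcd alone the order by sites was also that by median depth, with 642, 543, 327, 237.5 and 129 reads. In DDX41-ADARcd against the empty vector HSPA8 was deeper than HSP90AB1 (497 and 395.5 reads) and had fewer sites. The part of depth in these numbers was not tested, so they rank no gene or library by editing.

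**Figure D1:**
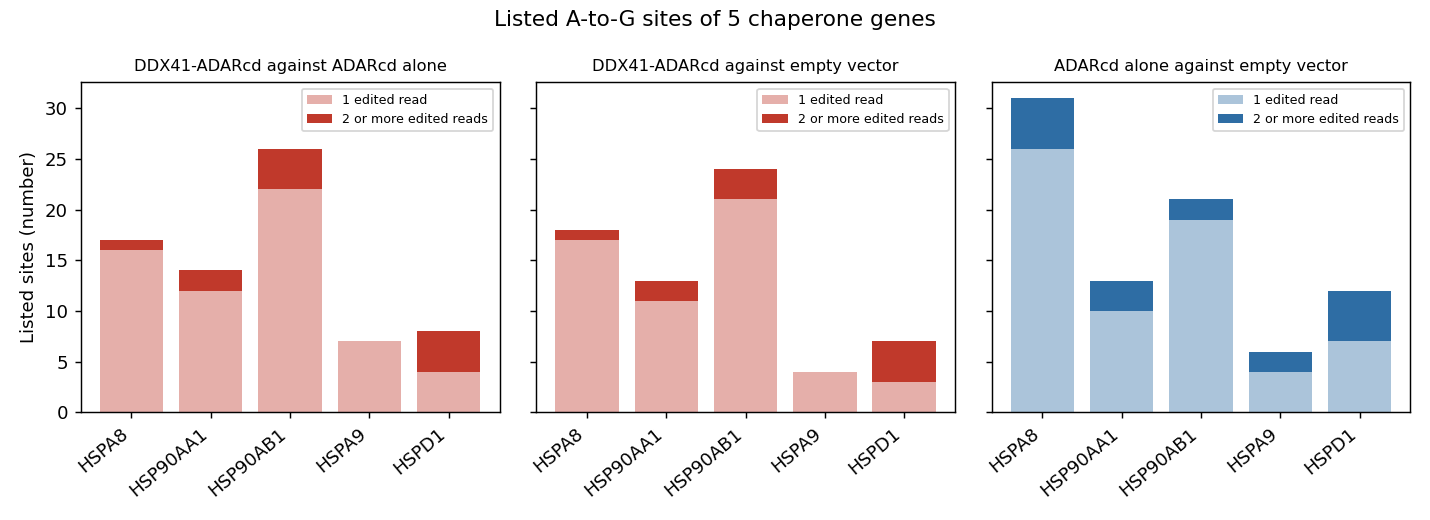
Number of listed A-to-G sites of each of the 5 genes in the 3 lists, split into sites with 1 edited read (light) and with 2 or more (dark). HSP90AB1 leads in both lists of DDX41-ADARcd with 26 and 24 sites, and HSPA8 in that of ADARcd alone with 31.

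Most of these sites rested on 1 edited read. In DDX41-ADARcd against ADARcd alone 11 of the 72 sites had 2 or more, against 16.1% of all 10407 listed sites, and against the empty vector 10 of 66, where the share over all sites was 18.5%. In ADARcd alone 17 of 83 had 2 or more, against 25.2% of all sites. The shares of the 5 genes pooled were 15.3%, 15.2% and 20.5%. HSPD1 stood above the share of all sites in each list, with 4 of 8, 4 of 7 and 5 of 12 sites in the same order. HSPA9 did so in ADARcd alone, with 2 of 6. These are small counts, and no difference was tested. Sites with 3 or more edited reads numbered 0 of 72 and 0 of 66 for DDX41-ADARcd (1.02% and 2.3% of all sites) and 3 of 83 for ADARcd alone (8% of all sites). A level of 1% or more was reached by 8 of 72 and 5 of 66 sites in DDX41-ADARcd, where the shares over all sites were 77.9% and 31%. In ADARcd alone it was reached by 5 of 83, against 22.1% of all sites. Pooled over the 5 genes, the median depth was above that of all listed positions in each list, while with the empty vector as control HSPA9 and HSPD1 lay below it in both edited libraries.

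The order of the levels among the 5 genes was the reverse of their depth. Against the empty vector, the median level in DDX41-ADARcd was 1.25% for HSPA9 (range 0.877 to 1.64, 4 sites), 0.939% for HSPD1, 0.417% for HSP90AA1, 0.269% for HSP90AB1 and 0.201% for HSPA8. The matching median depths were 84.5, 159, 258, 395.5 and 497 reads. In ADARcd alone the medians were 0.897% for HSPA9 (0.714 to 1.59), 0.534% for HSPD1 (0.415 to 0.893), 0.325% for HSP90AA1 (0.258 to 0.612), 0.185% for HSP90AB1 (0.157 to 0.229) and 0.158% for HSPA8 (0.151 to 0.177), with 95% intervals from order statistics, which for the 6 sites of HSPA9 are the whole range. With 1 edited read a level is 1 divided by the depth, so this order ranks no gene by editing. For neighbours in the order whose intervals overlap, such as HSPA9 and HSPD1, no difference is shown, and none was tested. The empty vector had 0 edited reads at each of these positions by the way they were listed. At its median depth of 42 and 44 reads in the 2 lists a count of 0, taken as a floor of 3 reads, allows a level of up to 7.14% and 6.82%. For HSPA8, the deepest of the 5 in the empty vector, the median limits were 2.29% and 2.36%.

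HSPA8 had the best-supported position of the 5 genes, at 123061192 of chromosome 11 in exon 2 of its coding sequence. ADARcd alone had 8 edited reads of 642 there (1.25%, 0.539 to 2.44) and the empty vector 0 of 133, a floor of 2.26%. The two-sided Fisher's exact test gave an unadjusted p of 0.363 and a Benjamini-Hochberg adjusted p of 1 over 6412 sites. The position was not listed for DDX41-ADARcd, whose reads there are not used here. Its nearest listed position in that library, 11 bases away, had 571 reads, a depth at which 1 edited read is 0.175%. The edited adenosine stands between T and C and is the first base of its codon, where the change would alter the amino acid. A near-identical stretch in the processed pseudogene AL390728.1 has A at this place as well.

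Exon 2 of HSPA8 held 8 listed positions within 103 bases, 3 of them in DDX41-ADARcd and 6 in ADARcd alone, with 1 in both. The shared position, 123061181, had 1 edited read of 571 in DDX41-ADARcd (0.175%, 0.00443 to 0.972), 1 of 635 in ADARcd alone (0.157%, 0.00399 to 0.874) and 0 of 130 in the empty vector. By share, 1 of the 66 positions of DDX41-ADARcd (1.52%) and 1 of the 83 of ADARcd alone (1.20%) was listed for both libraries. Over all genes the shares were 11.4% of the 3516 sites of DDX41-ADARcd and 6.27% of the 6413 sites of ADARcd alone. Among sites with 1 edited read they were 8.73% and 4.38%, where the 5 genes had 1 of 56 in DDX41-ADARcd and 1 of 66 in ADARcd alone. The shares of the 5 genes stood below these, and no test of that difference was made.

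The remaining HSPA8 sites lay close to the level of 1 read. In DDX41-ADARcd they had 318 to 605 reads, with a median level of 0.201% and a highest level of 0.429% (2 of 466 reads, 0.0520 to 1.54) at 123057821 in exon 9, where ADARcd alone had 0 of 653 and the empty vector 0 of 139. The pseudogene HSPA8P5, 96.0% identical over the 101 bases around this position, has G there. In ADARcd alone, 4 positions besides the first had 2 edited reads each, from 0.276% to 0.327%. The change at 123057821 and at the shared position would leave the amino acid as it is.

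The HSP90 paralogs had no position above 1.03% in either library. HSP90AA1 had 2 positions with 2 edited reads in DDX41-ADARcd. At 102086311, in exon 2, there were 2 of 205 reads (0.976%, 0.118 to 3.48) in DDX41-ADARcd, 0 of 304 in ADARcd alone and 0 of 20 in the empty vector. At 102083119, in exon 9, there were 2 of 314 (0.637%, 0.0772 to 2.28) in DDX41-ADARcd, 0 of 434 in ADARcd alone and 0 of 39 in the empty vector. Its best position in ADARcd alone was 102082273, in exon 10, with 3 of 291 reads (1.03%, 0.213 to 2.98) against 0 of 26 in the empty vector. All 3 changes would alter an amino acid.

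HSP90AB1, the constitutive paralog, had 4 positions with 2 edited reads in DDX41-ADARcd. The highest was 44253767 in the 3′ UTR with 2 of 217 reads (0.922%, 0.112 to 3.29) against 0 of 308 in ADARcd alone. It was followed by 44251586 with 2 of 347 (0.576%), 44251832 with 2 of 408 (0.490%) and 44250102 with 2 of 520 (0.385%), against 0 of 475, 0 of 557 and 0 of 613 in ADARcd alone. At 44251832 the pseudogene HSP90AB3P, 94.1% identical over 101 bases, has G. In ADARcd alone the best position was 44253355 in exon 11, with 2 of 381 reads (0.525%, 0.0636 to 1.88) against 0 of 12 in the empty vector, where a count of 0 allows up to 25%. One position of this gene, 44253597, lay in the stop codon and had 1 edited read of 347 in DDX41-ADARcd (0.288%, 0.00730 to 1.60), 0 of 545 in ADARcd alone and 0 of 16 in the empty vector.

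The mitochondrial chaperones had fewer positions and fewer reads. HSPD1 had 4 positions with 2 edited reads in DDX41-ADARcd, which is 4 of its 8 sites against ADARcd alone, where 16.1% of all sites had 2 or more. They were 197488451 (2 of 145 reads, 1.38%, 0.167 to 4.89), 197494668 (2 of 159, 1.26%), 197495336 (2 of 198, 1.01%) and 197489017 (2 of 213, 0.939%). ADARcd alone had 0 of 199, 0 of 246, 0 of 248 and 0 of 304 reads at these positions in the same order. In ADARcd alone the best position of HSPD1 was 197490241 in exon 8, with 3 of 326 reads (0.920%, 0.190 to 2.67) against 0 of 33 in the empty vector. HSPA9 had 1 edited read at each of its positions in DDX41-ADARcd. The highest levels were 2.86% (1 of 35 reads, 0.0723 to 14.9) at 138555864 against 0 of 46 in ADARcd alone, and 1.64% (1 of 61 reads, 0.0415 to 8.80) at 138555707, with 0 of 98 in ADARcd alone and 0 of 15 in the empty vector. Both lie in its 3′ UTR. In ADARcd alone, 138567687 in exon 6 had 2 of 126 reads (1.59%, 0.193 to 5.62) against 0 of 20 in the empty vector.

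**Figure D2:**
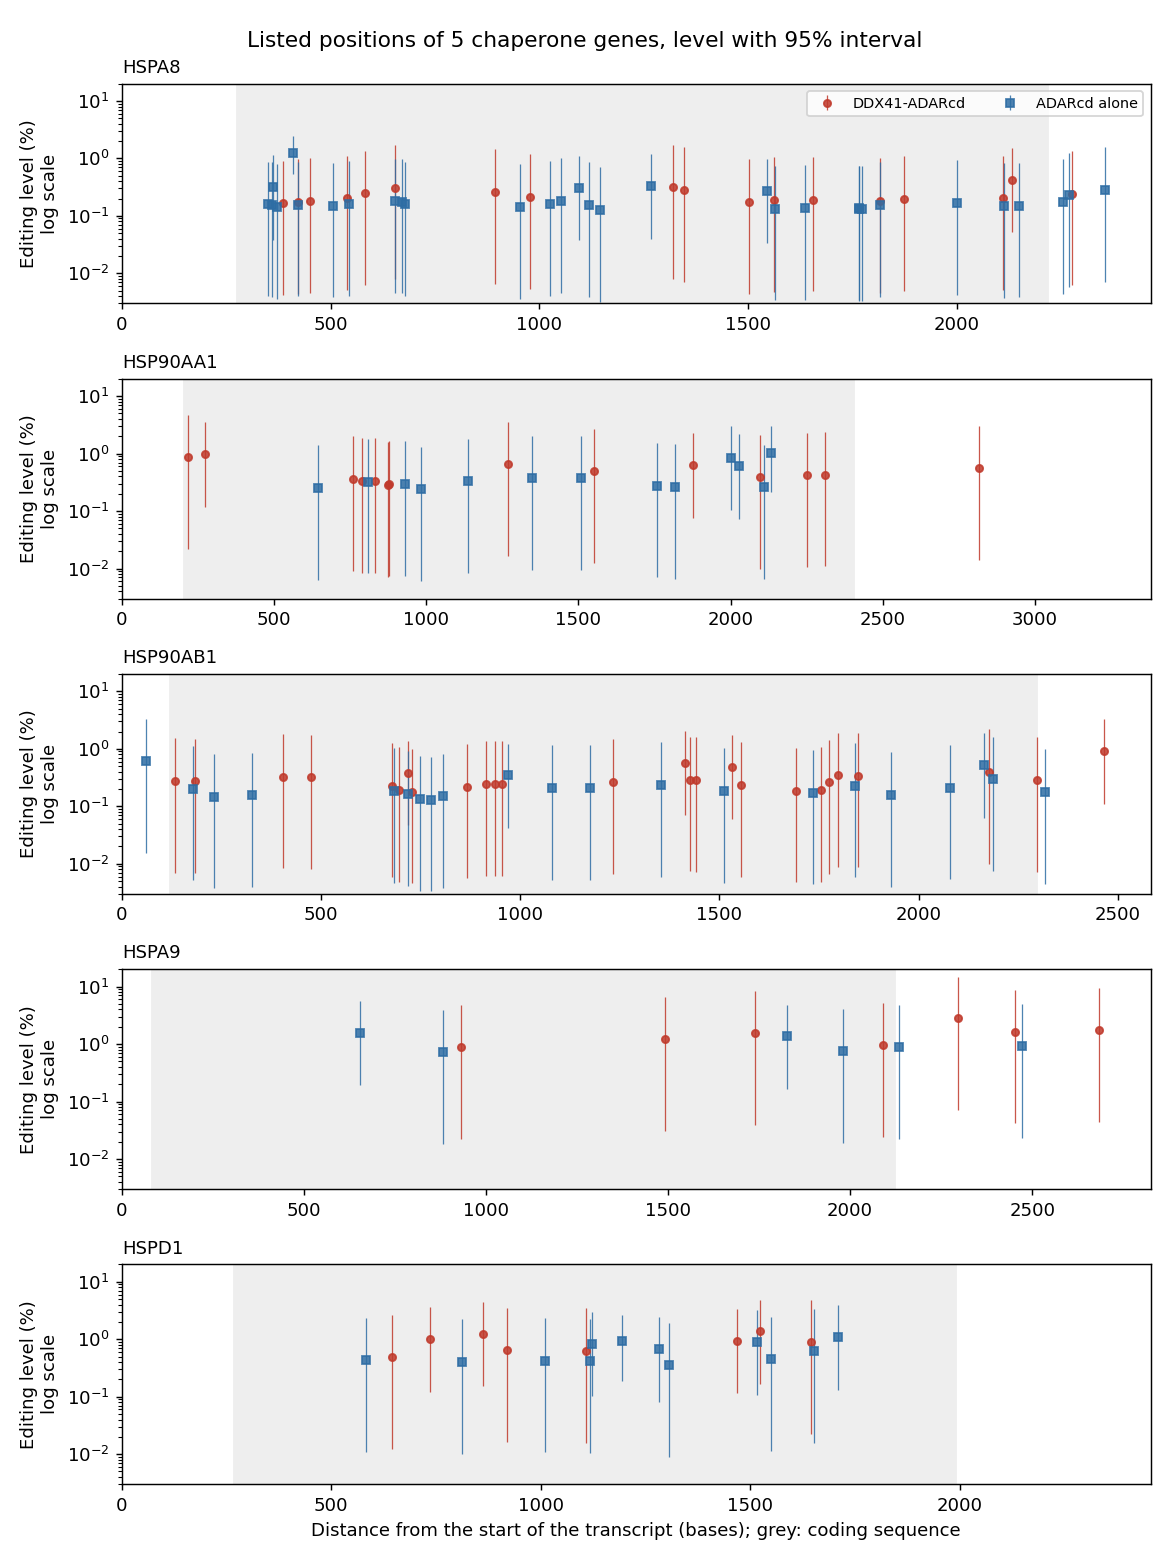
Editing level in percent (log scale) against distance from the start of the transcript in bases, for every listed position of the 5 genes, with exact 95% intervals; red circles are DDX41-ADARcd, blue squares ADARcd alone, and the grey field is the coding sequence. The positions spread along the coding sequence at levels close to that of 1 read, and the HSPA8 position at 1.25% in ADARcd alone stands above its neighbours.

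In none of the 3 comparisons did a chaperone site pass Fisher's exact test (two-sided). The comparisons ask where the fusion and the bare domain leave edits, and which edits follow from the DDX41 part. For DDX41-ADARcd against ADARcd alone 0 of 73 tested chaperone sites had an adjusted p under 0.05, where 0 of all 9227 sites were higher and 0.282% lower. Their smallest unadjusted p was 0.154, for HSPD1, with an adjusted p of 0.560. At an unadjusted p under 0.05 the chaperones had 0 sites, against 0.434% of all sites higher and 0.423% lower. At either threshold a site could come out lower only at the 400 added positions that are listed for both edited libraries. These held 1 of the 73 chaperone sites, so the shares lower are no measure for the others. For DDX41-ADARcd against the empty vector 0 of 66 passed, as did 0 of all 3512 sites, and at an unadjusted p under 0.05 the counts were 0 of 66 and 0.0854% of all sites. For ADARcd alone against the empty vector 0 of 83 passed, against 0.203% of all 6412 sites, and 0 of 83 had an unadjusted p under 0.05, against 0.546%.

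Depth sets how far these counts reach. At about the median depths of the chaperone positions, 342 in DDX41-ADARcd and 473 in ADARcd alone, 4 edited reads (1.17%) against 0 would give an unadjusted p under 0.05. Against the empty vector 31 edited reads of 347 (8.93%) would be needed in DDX41-ADARcd, and 41 of 495 (8.28%) in ADARcd alone. These limits are for depths pooled over the 5 genes. At the median depths of each gene, the level needed against the empty vector ran in DDX41-ADARcd from 3.02% for HSPA8 to 16.7% for HSPA9, and in ADARcd alone from 3.27% for HSPA8 to 17.8% for HSPA9. With ADARcd alone as control it ran from 0.805% for HSPA8 to 4.62% for HSPA9. The deposited lists hold positions with 0 edited reads in the control, and the test takes no account of that choice.

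For 3 shares of neighbouring bases, the intervals of the chaperone positions held the share around all adenosines of the same transcripts. ADAR enzymes are known to disfavour a G before the edited A. A G stood before it at 26 of the 73 positions of DDX41-ADARcd (35.6%, 24.7 to 47.7), at 27 of the 83 of ADARcd alone (32.5%, 22.7 to 43.7) and at 29.1% of the 4051 adenosines of the 5 transcripts. Among sites of ADARcd alone that had at least 5 edited reads, in any gene, it stood at 11 of 254 (4.33%, 2.18 to 7.62). A T stood before the edited A at 9.59% (3.94 to 18.8) of the positions in DDX41-ADARcd, 21.7% (13.4 to 32.1) in ADARcd alone, 15.7% of all adenosines and 45.3% (39.0 to 51.6) of the well-supported sites. A G followed it at 35.6% (24.7 to 47.7), 37.3% (27.0 to 48.7), 28.3% and 55.5% (49.2 to 61.7) in the same order. The intervals of the chaperone positions and of the well-supported sites do not overlap for any of these 3 bases. The groups also differ in support, since most chaperone positions had 1 edited read. Weakly supported sites of all genes were not compared, so the contrast cannot be credited to these 5 genes. HSPA8 has 1 of the well-supported sites, shown first above, with T before and C after the edited A.

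**Figure D3:**
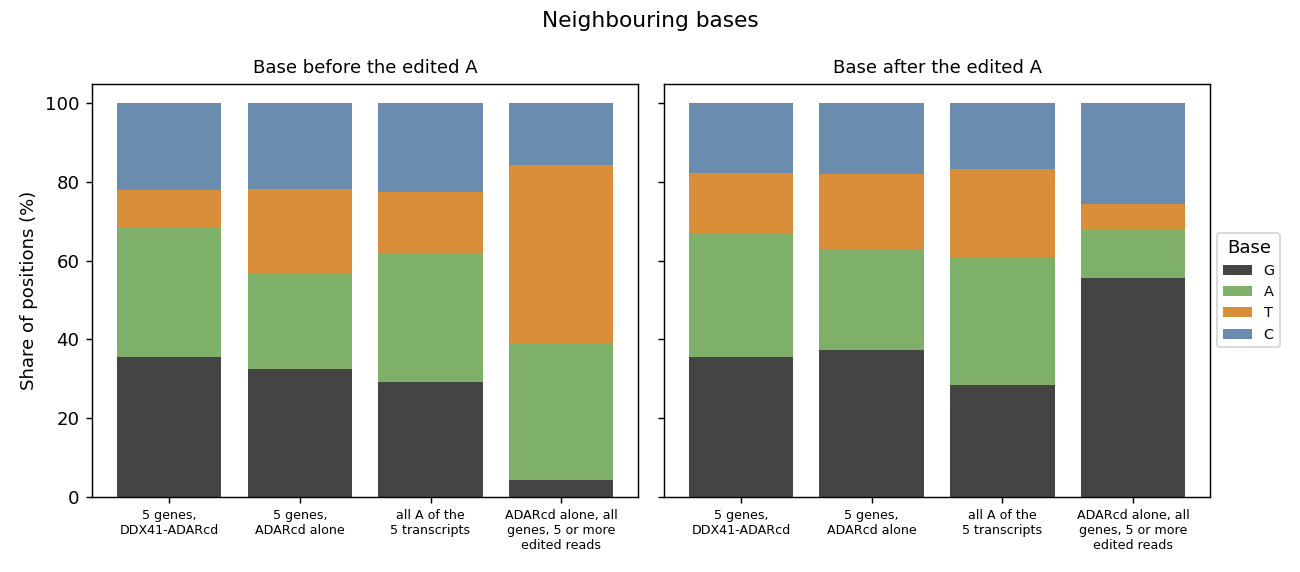
Share of positions in percent by the base before (left) and after (right) the listed A, for the 5 chaperone genes in DDX41-ADARcd (73 positions) and ADARcd alone (83), all adenosines of their transcripts (4051) and sites of ADARcd alone in any gene with at least 5 edited reads (254). The dark field for G before the A takes 35.6%, 32.5%, 29.1% and 4.33% of the columns from left to right.

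Restricted to positions with 2 or more edited reads, a choice made after seeing the data, the share with a G before the A was 36.4% in DDX41-ADARcd (11 positions) and 11.8% in ADARcd alone (17 positions). In the 28 such positions of either library a T stood before the A at 25% and a G after it at 42.9%. In the 127 positions with 1 edited read the shares were 14.2% and 35.4%.

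Of the 155 positions, 142 lay in coding exons, 12 in the 3′ UTR and 1 in the 5′ UTR. Adenosines of the coding sequence make up 77.2% of those in the 5 transcripts. HSPA9 had 5 of its 13 positions in the 3′ UTR, while HSPD1 had 20 of 20 in coding exons. The A-to-G change would alter the amino acid at 104 coding positions, leave it at 37 and remove the stop codon at 1. Over all coding adenosines of the 5 transcripts 24.4% of such changes leave the amino acid as it is, which is close to 37 of 142.

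These transcripts have many processed pseudogenes of near-identical sequence. At 128 of the 155 positions the surrounding 101 bases had a match of at least 60 bases and 95% identity in the transcript of an annotated gene outside the 5 chaperones. The 5 genes were not searched as copies of one another, so matches between HSP90AA1 and HSP90AB1 are not counted. This held for 20 of 20 positions of HSPD1, with up to 9 such copies, for 25 of 27 of HSP90AA1, 40 of 47 of HSP90AB1, 37 of 48 of HSPA8 and 6 of 13 of HSPA9. At 5 positions such a copy has G where the chaperone has A, 3 of them in HSPA8 and 1 each in HSP90AA1 and HSPA9. Matches under 95% identity are not in this count. Such matches have G at further positions named above, among them 197495336 of HSPD1 (6 genes) and 102082273 of HSP90AA1 (3 genes). The same holds for 1 gene each at 197489017 and 197490241 of HSPD1 and at 123061181 of HSPA8. The sources used here do not give how reads were assigned between copies. Each count at these positions is uncertain to that extent, and the part of the copies in the listed sites was not tested. Without positions that have a near-identical copy there were 11 sites in DDX41-ADARcd against ADARcd alone, 7 with the empty vector as control, and 16 in ADARcd alone.

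Read depth was compared between the libraries at the listed positions. The ratio of DDX41-ADARcd to ADARcd alone had medians from 0.622 for HSPA9 (range 0.468 to 0.803 over 7 positions) to 0.743 for HSPA8 (0.579 to 0.881 over 17), with HSP90AB1 at 0.732, HSPD1 at 0.707 and HSP90AA1 at 0.699. The median over 527 genes with 5 or more sites was 0.659 (5th to 95th percentile 0.488 to 0.876), and the medians of the 5 chaperones lay within that range. The 95% intervals of the 5 medians overlap one another, and for HSPA9 and HSPD1 they are the whole range. They are taken over positions that can share reads. No test between the genes was made, and no difference is shown. In RNA of whole cultures, fewer expressing cells and less RNA per cell cannot be told apart.

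Relative to the empty vector HSPA8 and HSP90AB1 stood apart from each other, and HSP90AA1 and HSPD1 lay close together. The median ratio of ADARcd alone to the empty vector was 4.91 for HSPA8 (range 3.85 to 10.4 over 31 positions), rank 401 of 414 genes from the highest, where the median of genes was 8.95 (5th to 95th percentile 5.30 to 17.2). It was 6.32 for HSPA9, 9.91 for HSP90AA1, 9.94 for HSPD1 and 13.0 for HSP90AB1 (7.01 to 42.8 over 21 positions), rank 60. In DDX41-ADARcd HSP90AB1 was again the highest and HSPA9 and HSPA8 the lowest of the 5, with 3.88 for HSPA9 (4 positions), 4.27 for HSPA8, 6.67 for HSPD1, 6.94 for HSP90AA1 and 10.9 for HSP90AB1, beside a median of 6.13 over 220 genes (5th to 95th percentile 3.70 to 12.4), a range that held the medians of the 5 chaperones. Both ratios share the empty vector library. The positions of HSPA8 in ADARcd alone ranged from 354 to 786 reads and in the empty vector from 59 to 182. Those of HSP90AB1 ranged from 165 to 765 reads in ADARcd alone and from 11 to 96 in the empty vector. The ranges of the 2 genes overlap in both libraries, and HSPA8 reached higher in the empty vector. Ratios carry no replicate error and no library total, and whether they reflect RNA levels was not tested.

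**Figure D4:**
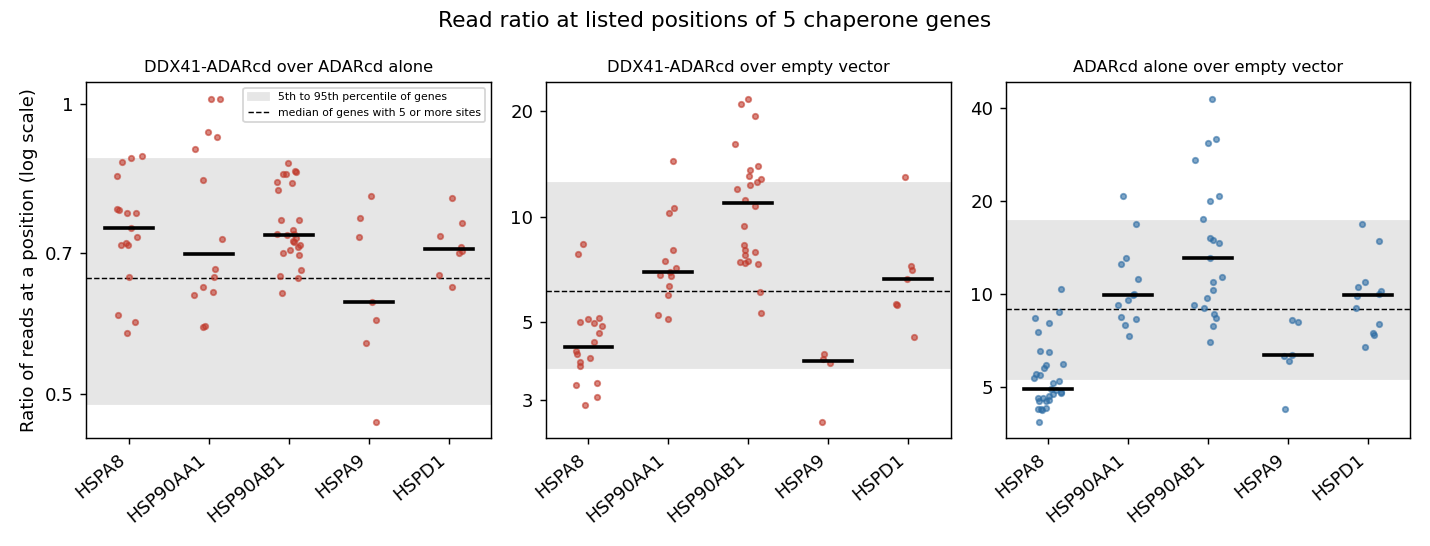
Ratio of reads of 2 libraries (log scale) at each listed position of the 5 genes (points), with the median per gene (bar), the median of genes with 5 or more sites (dashed) and their 5th to 95th percentile (grey). HSPA8 lies low relative to the empty vector, with medians of 4.27 in DDX41-ADARcd and 4.91 in ADARcd alone, and HSP90AB1 high, with 10.9 and 13.0.

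Other chaperones and co-chaperones also had sites in each list and none that passed the test. Of a list of 79 genes, 54 had 154 sites in DDX41-ADARcd with ADARcd alone as control, 23 had 92 sites with the empty vector, and 28 had 190 sites in ADARcd alone. In the test 0 of 152, 0 of 92 and 0 of 190 of these sites passed, and 0 had an unadjusted p under 0.05 in any comparison. Not all of them were weak in ADARcd alone. STUB1 had 8 edited reads of 81 at 681802 of chromosome 16 (9.88%, 4.36 to 18.5), where the empty vector had 13 reads. NACA had 7 of 532 at 56713134 of chromosome 12 (1.32%, 0.531 to 2.69), where the empty vector had 72. CANX, CALR and HSP90B1 act in the endoplasmic reticulum. HSP90B1, the HSP90 of that compartment, had 14 sites in DDX41-ADARcd against either control and 17 in ADARcd alone. CANX, a lectin chaperone of its membrane, had 13 and 14 in DDX41-ADARcd (ADARcd alone and the empty vector as controls) and 33 in ADARcd alone. CALR, its soluble relative, had 12 against either control in DDX41-ADARcd and 24 in ADARcd alone. CCT5, a subunit of the cytosolic chaperonin TRiC, had 8 sites against either control in DDX41-ADARcd and 16 in ADARcd alone. TCP1, another subunit, had 5 against either control in DDX41-ADARcd and 18 sites for ADARcd alone. The median level over the list was 1.30%, 0.758% and 0.516% in the 3 lists in that order, against 3.70%, 0.515% and 0.434% over all listed sites and 0.323%, 0.302% and 0.236% over the sites of the 5 genes.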

How the data were processed

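RNA editing was measured in 3 HyperTRIBE libraries of THP-1 cells, 1 per transgene. The authors deposited 3 site lists whose values, per the file headers, are counts: raw reads per base and in total, for a pair of libraries at each position, without normalization. The submitters' processing notes name STAR 2.5, FastQC 0.11.7, CASAVA 1.4 and mm10, a mouse build. How sites were called and filtered is not given in the sources used here. Columns are not marked by library: following each title, the first set of columns was read as the edited library and the second as its control. DDX41-ADARcd reads were equal between its lists at 3114 of 3114 positions. Coordinates fit human GRCh38: each of the 155 chaperone positions is an A on its GENCODE 29 transcript.

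Entries repeating a position were joined. Edited and other reads were compared per site with a two-sided Fisher's exact test (SciPy 1.17.1) at 10 or more reads in both libraries, with Benjamini-Hochberg adjustment over every site compared, called at an adjusted p under 0.05. For DDX41-ADARcd against ADARcd alone, positions that both edited libraries share in their lists with the empty vector were added. The test was tried on simulated data. The 101-base windows were aligned to other genes' GENCODE transcripts with blastn 2.17.0. Transcripts were the APPRIS principal isoforms. Named positions were those with 3 or more edited reads, 2 or more in DDX41-ADARcd, shared, or the best-supported of a gene and list. Of the list of 79 chaperones, up to 4 genes with most sites per list were named. STUB1 and NACA were added for their best-supported sites after the data were seen. HSP90AB1 positions 44253597, for its place in the stop codon, and 44248641, for its reads with C, were named outside these rules. Members, lists and tests were chosen with earlier results of these data known.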

Additional observations from a re-analysis of the deposited data

How the results depend on the processing

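The count of called chaperone sites stayed at 0 in the 3 comparisons at a minimum of 20 reads, with no minimum, at 2 or more edited reads, with Bonferroni adjustment and with reads halved in both libraries, and for DDX41-ADARcd against ADARcd alone also over the deposited list alone and over the shared positions alone. The smallest adjusted p among them was 0.292, at 2 or more edited reads. The count of 0 was fixed by the reads at these sites and says nothing of robustness. The smallest unadjusted Fisher's exact p at any setting was 0.154, which no adjustment lowers. Halving rounded down and left 0 edited reads at sites with 1. The number of listed sites moved with the filter: at 2 or more edited reads it was 11 and 10 for DDX41-ADARcd (against ADARcd alone and the empty vector) and 17 for ADARcd alone, at a level of 1% or more 8, 5 and 5, and without near-identical copies, an alternative added after seeing the data, 11, 7 and 16. The share of ADARcd alone positions with a G before the A fell to 11.8% at 2 or more edited reads; the cause was not tested. All 30 recomputed read ratios stayed within the interval of the median, which for part of them was fixed in advance. With ADARcd alone as control, all 72 positions already had 20 or more reads in both libraries. For HSPA9 and HSPD1 in DDX41-ADARcd the interval was the whole range. No paired analysis was possible because each group holds 1 library. The depth of the empty vector limits both comparisons with it.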

Other observations

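HSP90AB1 held 1 position with a second base in many reads. At 44248641 of chromosome 6, in exon 2, C stood in 52 of 360 reads of DDX41-ADARcd (14.4%, 11 to 18.5) and in 84 of 434 reads of ADARcd alone (19.4%, 15.7 to 23.4), with an unadjusted Fisher's exact p of 0.0725 between the libraries and an adjusted p of 1. The edited base stood in 1 and 0 reads. HSP90AB2P and HSP90AB3P, its near-identical copies there, have A. The position was not listed against the empty vector.

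The read ratio to the empty vector was uneven along HSP90AB1, by a split chosen after its values were seen. In the last 600 bases of the transcript the ratio of ADARcd alone to the empty vector was 27.1 to 42.8 over 4 positions, and further from the end 7.01 to 20.8 over 17. For HSPA8 it was 3.85 to 5.45 over 6 positions in the last 600 bases and 4.22 to 10.4 over 25 further from the end. DDX41-ADARcd gave 20.9 and 21.7 at 2 positions of HSP90AB1 in the last 600 bases and 5.33 to 19.3 over 22 others. In these last 600 bases of HSP90AB1 the empty vector had 11 to 21 reads at the 4 positions and 12 and 16 at the 2. Such counts are close to the 10 reads needed for listing, so the ratios there are imprecise.

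By the number of sites in the 3 lists (Euclidean distance of log2(sites + 1)), the genes most like each chaperone were NUCKS1 (0.187) and PABPC1 (0.194) for HSPA8, ND1 (0.217) and ATP6 (0.272) for HSP90AA1, ND4 (0.344) and SRGN (0.353) for HSP90AB1, ZMPSTE24 (0.257) and SRSF1 (0.272) for HSPA9, and CAPRIN1 (0.116) and RPL37 (0.170) for HSPD1. Their depths were often unlike: in ADARcd alone the median was 2060 reads for SRGN, against 543 for HSP90AB1, and 1777 for RPL37, against 237.5 for HSPD1.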
